A study of Mus musculus with 4 samples.

Results

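The 8 genes described here carry bile acids through the absorptive cells of the distal small intestine or respond to them: Slc10a2, Fabp6, Slc51a, Slc51b, Nr1h4, Fgf15, Nr0b2 and Gpbar1. They were chosen by name for their roles out of 55487 genes listed for mouse small intestinal (SI) organoids, by a rule that uses no measured value, although earlier results of these data were known. RNA was sequenced from organoids grown from crypts of mouse SI and infected with lentivirus, of which 2 libraries carried a miRNA mimic control (replicates 1 and 2) and 2 carried a miR-181a-5p mimic (replicates 3 and 4). All 4 cultures were kept in IntestiCult growth medium and selected with puromycin at 2 μg/ml, so the controls also carry a lentivirus and the selection. Mouse strain, sex and age, the segment of SI that gave the crypts, and whether the replicates came from separate infections are not given in the sources used here, so p-values measure only the spread between these libraries. The level of the mature miR-181a-5p was not measured in these libraries.

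Bile acids that reach the ileum are taken up across the apical membrane by the sodium-dependent transporter ASBT (Slc10a2), carried through the cytosol by the ileal bile acid-binding protein (Fabp6) and exported across the basolateral membrane by the paired subunits OSTα (Slc51a) and OSTβ (Slc51b). Inside the cell they activate the nuclear receptor FXR (Nr1h4), which raises transcription of the hormone gene Fgf15, of the repressor SHP (Nr0b2), of Fabp6 and of both OST subunits. FGF15 travels to the liver and lowers bile acid synthesis there. Gpbar1 encodes TGR5, a membrane receptor for bile acids best known in enteroendocrine cells and in macrophages.

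Libraries held 31104884 to 38111731 expected counts, and 17155 genes passed the filter on low counts and were tested. The median log2 fold change of the tested genes, miR-181a-5p mimic over mimic control, was -0.01. The two-sided quasi-likelihood test of edgeR was used, and a gene was called where its p, adjusted by Benjamini and Hochberg's method, was under 0.05. By that rule 220 genes were higher with the mimic (1.28% of those tested) and 392 were lower (2.29%). With at least a 2-fold difference as well, 101 (0.589%) were higher and 253 (1.47%) were lower. The values of both mimic libraries lay above both controls in 28.9% of tested genes and below both in 29.5%, so groups that do not overlap are common here.

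Sequences that bear on the treatment and on FXR were read first, because the mimic is a short RNA that pairs with sites in 3' UTRs and because several of these genes are known FXR targets. The mature miR-181a-5p (RefSeq, GRCm38.p6) lies on the plus strand at chr1:137966468-137966490 in Mir181a-1 and at chr2:38852741-38852763 in Mir181a-2. Its seed, bases 2 to 8, is in capitals, and 4 mature mouse miRNAs of the RefSeq table share it (miR-181a-5p, b-5p, c-5p and d-5p).
miR-181a-5p: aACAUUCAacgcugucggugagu
Matches to it were looked for in each gene's longest 3' UTR (GENCODE, GRCm38) as TGAATGT, the complement of the seed, or as GAATGT followed by A, on the gene's own strand. Slc10a2 held a full match with the flanking A (an 8mer) at chr8:5085025-5085048, minus strand, from base 1116 of a 3' UTR of 2937 bases. It also held a shorter match (a 7mer-A1) at chr8:5085578-5085600. Nr1h4 held an 8mer at chr10:89454372-89454395, minus strand, from base 323 of 476. Capitals mark the matched bases.
Slc10a2 8mer site: gatgtgaaTGAATGTAttcctctg
Slc10a2 7mer-A1 site: tgtacataGAATGTAtagataga
Nr1h4 8mer site: caataaacTGAATGTAatagcaag
The other 6 genes held none of these matches, nor a 6-base match. Their 3' UTRs were mostly short (63 bases in Fabp6, 83 in Slc51b, 35 in Gpbar1 and 300 in Nr0b2), while Slc51a had 1238 and Fgf15 1005 bases. Among 12913 tested genes with a 3' UTR of at least 50 bases, 6.3% held an 8mer. The median log2 fold change of those genes was 0.02, as was that of the 8003 genes with no match of 6 or more bases.

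FXR with its partner RXR binds an inverted repeat of the hexamer AGGTCA with 1 base between the copies (IR-1). The closest match to AGGTCA, any base, TGACCT was sought from 250 bases before to 50 bases after the start of each gene, a palindrome that reads the same on both strands, in the RefSeq promoters of 7 of the 8 genes. Fabp6 held 2 windows that matched 10 of the 12 fixed bases, a score reached by 1.14% of 32851 mouse promoters. They begin 222 and 142 bases before the start, at chr11:43601765-43601791 and chr11:43601685-43601711 (GRCm38.p6, minus strand). They are shown because Fabp6 is the textbook ileal FXR target and is described next by its lack of RNA. Capitals mark the paired hexamers.
Fabp6 window, distal: agcagagAGGTGAaTGACCAcactctg
Fabp6 window, proximal: ttccttaAGGTGAaTAACCTtggggct
Slc51a and Slc51b each reached 9 of 12, as 11.42% of promoters did. Slc10a2, Nr1h4, Nr0b2 and Gpbar1 reached 8, as 56.39% did. A match of letters is a description of the window and not a measured binding site.

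By level, the receptor stood above the other 7 genes. On the TPM scale, which is per transcript length and allows genes to be compared, Nr1h4 lay at 21.5 and 23.7 in the controls and 18.2 and 18.3 in the mimic libraries. Slc51b followed at 4.07 to 7.49 TPM over the 4 libraries and Slc51a at 1.38 to 2.97 TPM. Slc10a2 lay at 0.76 to 2.74 TPM, Nr0b2 at 0.37 to 0.91, Fgf15 at 0.13 to 0.77, Gpbar1 at 0.16 to 0.28 and Fabp6 at 0 to 0.1 TPM. Nr1h4 and Slc51b, Slc51b and Slc51a, and Gpbar1 and Fabp6 did not overlap in any library. Slc51a and Slc10a2 overlapped in range, but Slc51a was the higher of the pair in 4 of 4 libraries. The neighbours from Slc10a2 down to Gpbar1 overlapped, and each pair kept its order in 3 of 4 libraries. Nr1h4 stood 28.3 and 28.9 times above Slc10a2 in the controls, and 17.2 and 6.7 times in the mimic libraries.

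**Figure D1:**
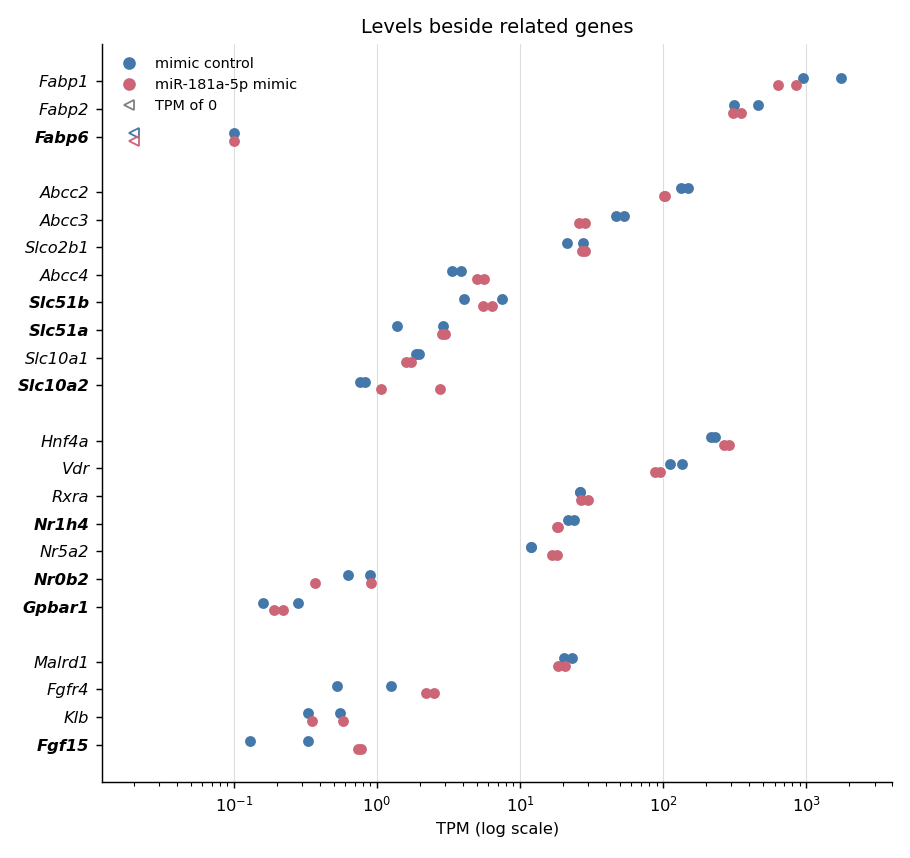
Each point is 1 library on a TPM axis with a log scale; blue points are the 2 mimic controls, red points the 2 miR-181a-5p mimic libraries, and open triangles mark a TPM of 0. Names in bold are the 8 genes described. Fabp6 lies at 0 to 0.1 TPM while Fabp1 and Fabp2 lie at 305 TPM and above, and Nr1h4 lies near Rxra while Nr0b2 and Fgf15 stay below 1 TPM.

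Slc10a2 (chr8:5083219-5105351, GRCm38, minus strand) encodes the uptake step. Its normalized CPM (counts scaled to library size) was 2.61 and 2.78 in the controls, and 3.61 and 8.57 in the mimic libraries. Both mimic libraries lay above both controls, and mimic replicate 4 lay far above replicate 3. The group means were 2.69 ± 0.12 and 6.09 ± 3.51 CPM (SD, n = 2 each). The log2 fold change was 1.19 ± 0.39 (SE) with a 95% interval of 0.28 to 2.09, which did not pass the test (adjusted p = 0.123). Without mimic replicate 4 the log2 fold change was 0.42 (adjusted p = 0.519), and without mimic replicate 3 it was 1.67 (adjusted p = 0.0112), so the call turned on which mimic library was kept. Slc10a2 holds an 8mer for miR-181a-5p and was not lower in either mimic library, and action of the mimic on the site was not tested.

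Fabp6 (chr11:43596049-43601540) encodes the binding protein abundant in the cytosol of ileal enterocytes. It gave 0 counts in control replicate 1, 1 count in control replicate 2, 1 in mimic replicate 3 and 0 in mimic replicate 4. These counts lie under the limit of 3 counts that a count of 0 allows, which was 0.0782 to 0.0968 CPM per library, and the gene entered no test. The related fatty acid-binding genes of the proximal and general enterocyte were abundant in the same libraries. Fabp1 lay at 948, 1749, 843 and 636 TPM in library order and Fabp2 at 312, 459, 351 and 305 TPM. Enterocyte RNA was thus measured at high levels in libraries where Fabp6, a defining marker of ileal enterocytes, was at the floor.

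Slc51a (chr16:32474504-32487879) and Slc51b (chr9:65412714-65422955) encode the export partners, which work only as a pair. Slc51a lay at 2.13 and 3.91 CPM in the controls and 4.44 and 3.73 CPM in the mimic libraries, a log2 fold change of 0.46 ± 0.31 (95% interval -0.27 to 1.18, adjusted p = 0.398). Slc51b lay at 2.11 and 3.84 CPM in the controls and 2.84 and 3.03 CPM in the mimic libraries, a log2 fold change of 0.0011 ± 0.31 (95% interval -0.72 to 0.72, adjusted p = 0.999). Both subunits had their lowest value in control replicate 1, and the groups overlapped for both. An increase or a decrease of Slc51b of up to 0.72 on the log2 scale lies within the interval. Slc51b exceeded Slc51a 1.85 to 2.95 times in TPM in each of the 4 libraries. In control replicate 1 the summed enterocyte markers were also below those of control replicate 2 (2500 against 2998 TPM). In the mimic libraries they were lower still, at 2115 and 2317 TPM. In these sums Anpep held 656 and 448 TPM in the controls, and 103 and 162 TPM in the mimic libraries. With Anpep taken out, the sums of both mimic libraries lie between those of the controls, so the lower mimic sums rest on that gene. The summed Paneth cell markers were 2233 and 1190 TPM in the controls, and 1225 and 1550 TPM in the mimic libraries. The part of these sums in the spread was not tested. Without control replicate 1 the log2 fold change of Slc51a was 0.06, and without control replicate 2 it was 0.95. Annotated exons of Slc51a share 567 of 3198 bases with Pcyt1a on the other strand, and those of Slc51b share 91 of 709 bases with Rasl12. Pcyt1a held 2434 to 3037 counts a library, and whether reads were counted by strand is not given in the sources used here. Expected counts of Slc51a and Pcyt1a were 81.48 and 2920.52 in control replicate 1. They were 138.91 and 2434.09 in mimic replicate 3, and 132.78 and 3001.22 in mimic replicate 4. In each of these libraries the fractions add up to whole reads, so some reads were divided between the pair. The Slc51a values thus depend in part on that division, and its size was not tested.

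**Figure D2:**
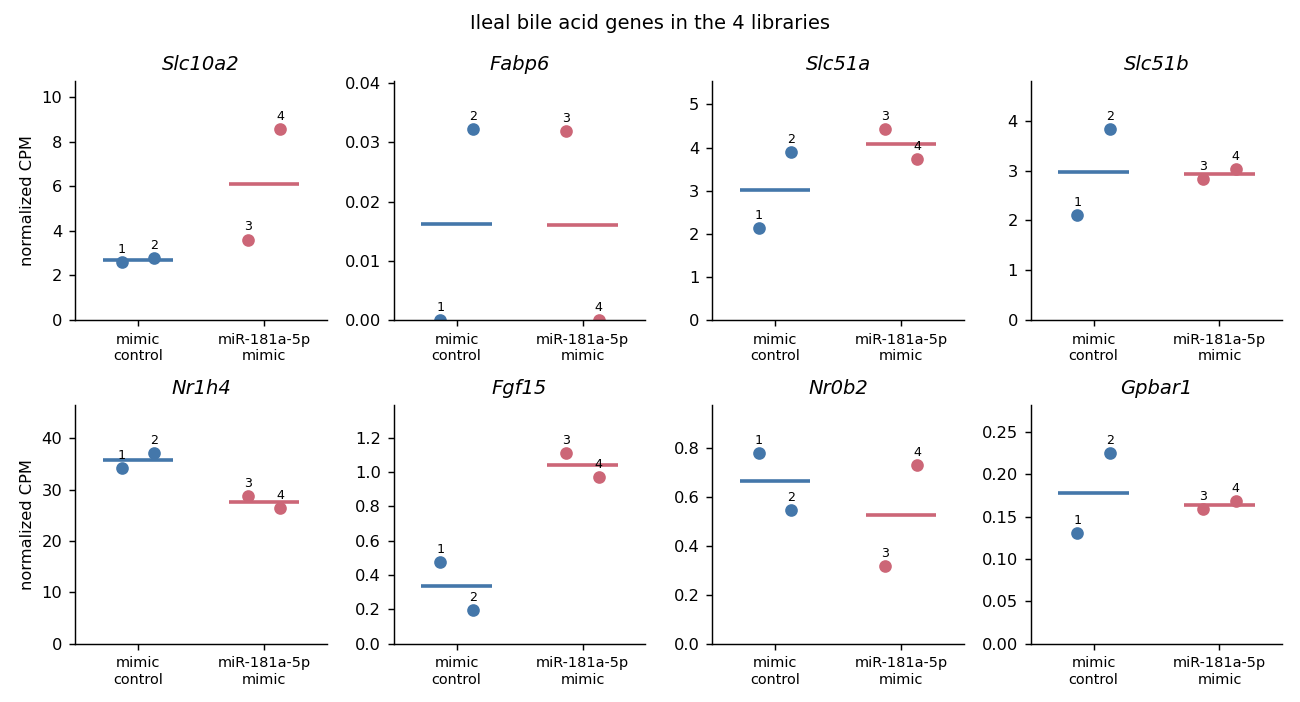
Normalized CPM (vertical axis, from 0, with its own scale for each gene) of the 8 genes in the 2 mimic controls (blue) and the 2 miR-181a-5p mimic libraries (red). Numbers are the replicates and bars the group means. The groups lie apart for Slc10a2, Nr1h4 and Fgf15, with Nr1h4 at 34.3 and 37.2 against 28.8 and 26.5 CPM, and overlap for the others.

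Nr1h4 (chr10:89454234-89533585) encodes FXR, the receptor. It was the best measured of the 8 genes, with 901 to 1314 counts a library. It lay at 34.3 and 37.2 CPM in the controls and at 28.8 and 26.5 CPM in the mimic libraries, which both lay below both controls. The means were 35.8 ± 2.10 and 27.6 ± 1.63 CPM (SD, n = 2 each), a ratio of 0.772. The log2 fold change was -0.37 ± 0.11 with a 95% interval of -0.64 to -0.11, and the gene did not pass the test (adjusted p = 0.107). With each library left out in turn the log2 fold change stayed between -0.44 and -0.31, the narrowest range of the 6 tested genes, and no such fit called it. Nr1h4 and Slc10a2 both held an 8mer for miR-181a-5p and had log2 fold changes of opposite sign. Neither passed the test, and action of the mimic on these sites was not tested.

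Fgf15 (chr7:144896531-144900953) encodes the ileal hormone and is a classical target of FXR. Its expected counts were 18.2 and 6 in the controls and 34.9 and 34.6 in the mimic libraries, or 0.475 and 0.194 CPM against 1.11 and 0.971 CPM. The groups did not overlap, and the means were 0.334 ± 0.20 and 1.04 ± 0.10 CPM (SD, n = 2 each). The log2 fold change was 1.60 ± 0.44 (95% interval 0.57 to 2.62), a ratio of 3.02, and did not pass the test (adjusted p = 0.0884). The value in control replicate 1 depends on how reads were shared with another gene. Fgf15 exons share 761 of 3058 bases with Gm26793, a gene on the other strand, which was assigned 17.8, 1, 7.12 and 6.43 counts in library order. The sum of both genes is a whole number in every library, with 36 and 7 in the controls and 42 and 41 in the mimic libraries, so the fractions are reads divided between the pair. On the sum, the log2 fold change was 1.02 (adjusted p = 0.267), and control replicate 1 lay at 0.939 CPM beside 1.34 and 1.15 CPM in the mimic libraries. The size of the Fgf15 difference is therefore uncertain, and it rests in part on the 7 reads of control replicate 2.

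Nr0b2 (chr4:133553376-133556536) encodes SHP, a repressor without a DNA-binding domain. It lay at 0.782 and 0.549 CPM in the controls and 0.319 and 0.730 CPM in the mimic libraries, from 10 to 30 counts. The groups overlapped, and the log2 fold change was -0.33 ± 0.47 (95% interval -1.43 to 0.76, adjusted p = 0.699). Its sign changed without mimic replicate 3, to 0.11. Gpbar1 (chr1:74278550-74279624) gave 5 and 7 counts in the controls, and the mimic libraries gave 5 and 6, too few to be tested. Marker RNA of the cells best known for TGR5 differed in level, and numbers of cells were not measured. Enteroendocrine markers summed to 241 to 376 TPM, while the leukocyte list summed to 2.98 to 3.44 TPM, with Ptprc, the pan-leukocyte marker, at 0.01 to 0.04 TPM.

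Of the 8 genes, 6 were tested and 0 were called in either direction by edgeR's quasi-likelihood test, beside a background of 1.28% of genes higher and 2.29% lower. At an unadjusted p under 0.05 there were 3, namely Fgf15, Nr1h4 and Slc10a2, beside 4250 (24.8%) of all tested genes. Other tests of edgeR called some. The likelihood-ratio test called Fgf15 and Slc10a2, and the exact test called Fgf15, in settings where they also called more genes over the whole table. DESeq2 called 0 and gave Nr0b2 no adjusted p. The groups lay apart in 2 genes upward and 1 downward of the 6 tested, against 28.9% and 29.5% of all tested genes. In single genes an exact permutation test over 2 against 2 libraries cannot give a p below 0.333. In bulk RNA a lower share of cells that make a transcript and less transcript per cell cannot be told apart.

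**Figure D3:**
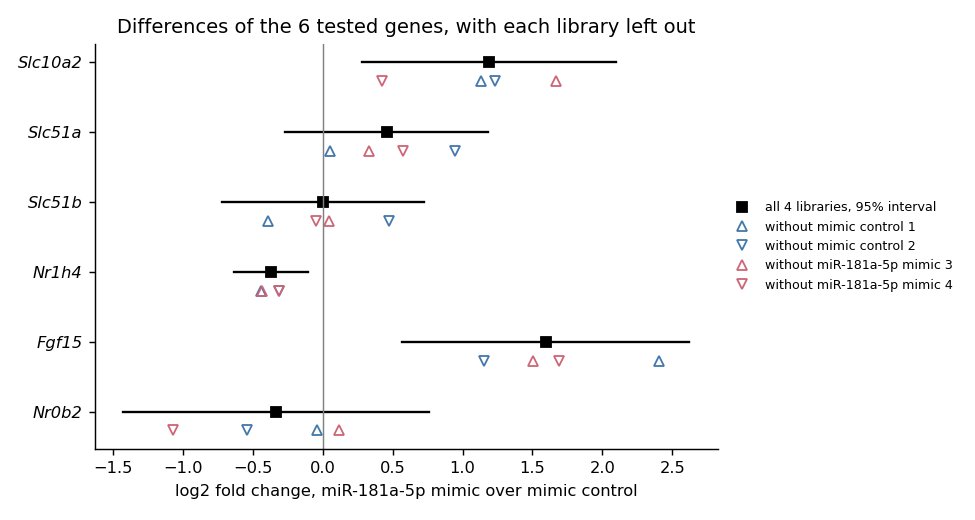
Log2 fold change (horizontal axis) of the 6 tested genes, with black squares for the fit on all 4 libraries, lines for its 95% interval and open triangles for fits that leave out 1 library. Nr1h4 stays between -0.44 and -0.31, while Slc10a2 runs from 0.42 to 1.67 and Slc51b from -0.39 to 0.48.

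The wider bile acid pathway was read in 5 further lists of 58 genes, of which 46 were tested. In these, 1 gene rose and 5 fell, beside 1.28% higher and 2.29% lower over all tested genes. At an unadjusted p under 0.05 there were 16 (24.8% of all tested genes were). The median log2 fold change was 0.02 beside -0.01 over all genes. These and the lists below were chosen with earlier results of these data known. Nr5a2 rose, and Abcc3, Slc27a2, Nr1i3, Ppargc1a and Apoc2 fell. The calls became 4 higher and 6 lower without control replicate 2, 5 and 7 with the exact test, 0 and 1 with no filter and 0 and 0 with limma on log2(TPM + 1), where 17 were at an unadjusted p under 0.05. Of the 6 genes named, 4 were called with each library left out in turn. Nr5a2 and Nr1i3 were called only without control replicate 2 (adjusted p = 0.0323 and 0.0037), and without mimic replicate 3, for example, had adjusted p of 0.231 and 0.0866.

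Among 10 other bile acid transporters, 5 were tested and 1 fell. Abcc3, which encodes the basolateral export pump MRP3, lay at 200 and 175 CPM in the controls and 103 in both mimic libraries (log2 fold change -0.86 ± 0.10, adjusted p = 0.0101). Abcc2, the apical pump MRP2 and the most abundant of the list, lay at 132 and 150 TPM against 102 and 104 TPM and was not called (adjusted p = 0.154). Both pumps also carry conjugates other than bile acids. At 25.9 to 53.0 TPM, Abcc3 stood above both OST subunits in every library. Slc10a1, the liver uptake transporter NTCP, lay at 1.60 to 1.96 TPM, a range that overlapped that of Slc10a2.

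Of 12 synthesis genes, 8 were tested and 1 fell. It was Slc27a2, a very long-chain acyl-CoA synthetase, at 150 and 107 CPM against 72.2 and 66.4 CPM (log2 fold change -0.89 ± 0.16, adjusted p = 0.033), and it was also the most abundant of the list by its mean over the 4 libraries, though Hsd17b4 stood above it in both mimic libraries. Cyp7a1, the rate-limiting enzyme of bile acid synthesis in liver, gave 0 counts in each library, as did Cyp8b1 and Cyp7b1. Slc27a2 also activates fatty acids outside this pathway.

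Of 18 partners and regulators of FXR, 17 were tested. Nr5a2, which encodes LRH-1, a receptor that acts with SHP and FXR, rose from 35.7 and 35.4 CPM to 53.3 and 48.2 CPM (log2 fold change 0.51 ± 0.11, adjusted p = 0.0471). Nr1i3, which encodes the xenobiotic receptor CAR, fell from 47.0 and 38.5 CPM to 26.5 CPM in both mimic libraries (log2 fold change -0.69 ± 0.13, adjusted p = 0.0353). Ppargc1a, the coactivator PGC-1α, fell from 29.6 and 33.5 CPM to 19.3 and 18.0 CPM (log2 fold change -0.76 ± 0.12, adjusted p = 0.0259). Rxra, the partner with which FXR binds DNA, lay at 105.7 and 103 CPM against 104 and 109 CPM (log2 fold change 0.03 ± 0.09). Hnf4a was the most abundant of the list at 217 to 287 TPM and was not called (adjusted p = 0.217).

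Of 6 genes of FGF15 signalling, 5 were tested and 0 were called. Fgfr4, the receptor for FGF15, lay at 3.03 and 1.42 CPM in the controls and 5.17 and 5.84 CPM in the mimic libraries, which did not overlap with them (log2 fold change 1.28 ± 0.33, adjusted p = 0.0759). Its co-receptor Klb lay at 0.33 to 0.58 TPM. Malrd1, which encodes the factor Diet1 that promotes FGF15 output, was the most abundant of the list at 18.3 to 22.9 TPM, far above Fgf15 itself.

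Of 12 other FXR targets, 11 were tested and 1 fell. Apoc2, an activator of lipoprotein lipase, went from 37.8 and 65.3 CPM to 22.4 and 22.8 CPM (log2 fold change -1.19 ± 0.23, adjusted p = 0.0413). Ugt1a1, which conjugates bilirubin, was the most abundant by its mean over the 4 libraries, at 150 to 216 TPM, and was not called (adjusted p = 0.1), and Cyp3a11 stood above it in control replicate 2 and mimic replicate 3. Nos2 lay at 1.56 and 1.06 CPM against 2.20 and 5.06 CPM, and Car12 at 2.09 and 2.26 CPM against 3.42 and 5.81 CPM, and neither passed the test (adjusted p = 0.101 and 0.0881). Both had their highest value in mimic replicate 4, as Slc10a2 did.

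**Figure D4:**
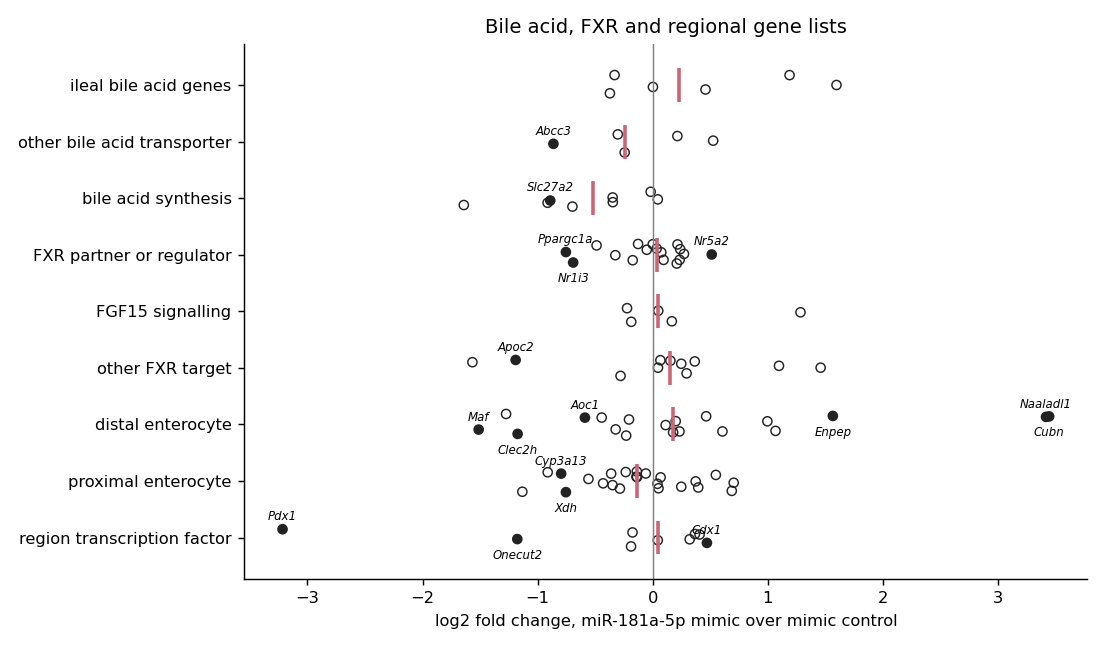
Log2 fold change (horizontal axis) of the tested genes of 9 lists, 1 point a gene. Filled points with names passed the test, open points did not, and red bars are list medians. The top row, with the 6 tested ileal bile acid genes, has 0 filled points, while the regional lists at the bottom hold called genes from Pdx1 at -3.22 to Cubn at 3.44.

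Because bile acid uptake by this pathway is a trait of the distal SI, genes with a known gradient along the gut were read beside the 8 genes. Of 20 genes of distal enterocytes, 19 were tested, 3 rose and 3 fell (median log2 fold change 0.18). Over all tested genes 1.28% were called higher and 2.29% lower. Naaladl1, a peptidase, rose from 9.42 and 8.29 CPM to 96.7 and 92.6 CPM (log2 fold change 3.42 ± 0.12, adjusted p = 9.4e-05). Cubn, the receptor that takes up vitamin B12 with intrinsic factor in the ileum, rose from 2.35 and 1.97 CPM to 14.9 and 32.2 CPM (log2 fold change 3.44 ± 0.37, adjusted p = 0.0081). Enpep, an aminopeptidase, rose from 24.9 and 38.1 CPM to 108 and 77.8 CPM (log2 fold change 1.56, adjusted p = 0.0168). Clec2h, a C-type lectin, fell by 1.17 on the log2 scale, Maf, a transcription factor, by 1.51 and Aoc1, diamine oxidase, by 0.59, with adjusted p of 0.0188, 0.0374 and 0.047. Aoc1 was called only without control replicate 2 among the fits that left out a library. Myo15b, the most abundant of the list, lay at 68.5 to 79.8 TPM and was not called.

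Of 23 genes of proximal enterocytes, all were tested, 0 rose and 2 fell (median log2 fold change -0.14). The shares over all tested genes were 1.28% higher and 2.29% lower. Cyp3a13, a cytochrome P450, lay at 194 and 268 CPM against 134 and 133 CPM (log2 fold change -0.80, adjusted p = 0.0388). Xdh, xanthine dehydrogenase, lay at 65.9 and 80.6 CPM against 46.2 and 40.6 CPM (log2 fold change -0.75, adjusted p = 0.0311). Without mimic replicate 3, Cyp3a13 had an adjusted p of 0.0723. Fabp1, the most abundant of the list by its mean over the 4 libraries, lay at 636 to 1749 TPM. Both mimic libraries lay below both controls (log2 fold change -0.91, 95% interval -1.56 to -0.26), and Fabp1 was not called (adjusted p = 0.109). Gsta1 stood above Fabp1 in both mimic libraries. In the authors' own edgeR analysis, whose test is not named, Fabp1 had the same log2 fold change of -0.91 and an adjusted p under 0.05. The authors also reported lower Fabp1 with the mimic by qPCR. Without control replicate 2 the calls in this list became 4 higher and 4 lower, and in the distal list 9 higher and 4 lower.

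Among 9 transcription factors of gut regions, 1 rose and 2 fell (median log2 fold change 0.04), beside 1.28% and 2.29% of all tested genes. Pdx1, the factor of the duodenum and pancreas, fell from 8.82 and 13.3 CPM to 1.31 and 1.07 CPM (log2 fold change -3.22 ± 0.29, adjusted p = 0.00499). Onecut2 fell from 247 and 276 CPM to 119 and 112 CPM (log2 fold change -1.18 ± 0.10, adjusted p = 0.00473). Cdx1, a posterior homeobox gene, rose from 97.4 and 89.7 CPM to 134 and 125 CPM (log2 fold change 0.47 ± 0.10, adjusted p = 0.0477), and lost the call without mimic replicate 3 (adjusted p = 0.223) or replicate 4 (adjusted p = 0.0703). Gata4, a factor of the duodenum and jejunum, lay at 172 and 179 CPM against 162 and 146 CPM and was not called (adjusted p = 0.273). Klf5, the most abundant of the list, lay at 137 to 187 TPM and was not called (adjusted p = 0.0936).

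The tested genes nearest to each member were sought by the distance between log2 CPM values centred on their own mean, over 4 libraries, with no test. Nearest to Slc10a2 were Pecam1, Gcnt1 and Insc (distances 0.136, 0.289 and 0.29). Each had its highest value in mimic replicate 4, as with Insc at 2.06, 2.39, 2.71 and 5.59 CPM. Nearest to Slc51a were Gm7126, 2010106E10Rik and Gm15368 (0.0641 to 0.0796), which shared its low control replicate 1. Nearest to Slc51b were Gm17058, AC161530.1 and Abi3bp (0.0883 to 0.111). Nearest to Nr1h4 were Gm17137, Tmem141 and Acadl (0.0239 to 0.0411), the closest matches of any member. Acadl, the long-chain acyl-CoA dehydrogenase of fatty acid oxidation, lay at 154 and 173 CPM against 130 and 122 CPM. Nearest to Fgf15 were Nsun7, Map9 and Susd2 (0.212 to 0.336), and nearest to Nr0b2 were Mip, Arg1 and AC165327.2 (0.127 to 0.164). With 17155 genes and 4 libraries close profiles are easy to find, and none of the neighbours named passed the test.

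The labelled tissue was borne out by its markers. In library order, replicates 1 to 4, the enterocyte list summed to 2500, 2998, 2115 and 2317 TPM. Of these sums Anpep alone held 656, 448, 103 and 162 TPM. The Paneth cell list summed to 2233, 1190, 1225 and 1550 TPM. Goblet cell markers summed to 1150 to 1321, stem cell markers to 581 to 879 and tuft cell markers to 4.05 to 7.22 TPM. By their means over the 4 libraries, though not in every library, the most abundant markers of these lists were Sis, Itln1, Spink4, Slc12a2 and Trpm5, and Chgb for enteroendocrine cells. Among them Anpep, an enterocyte brush border peptidase, fell by 2.14 on the log2 scale (adjusted p = 0.0081), Lgr5 of stem cells fell by 1.38 (adjusted p = 0.0369) and Spink4 of goblet cells by 0.59 (adjusted p = 0.0353). The rest of these lists was not called, and 3 of 10 enterocyte, 4 of 6 stem cell and 3 of 6 goblet cell markers had log2 fold changes above 0. Of the others, 0 of 8 enteroendocrine, 0 of 6 Paneth and 0 of 5 tested tuft cell markers were called. Over all tested genes 1.28% were called higher and 2.29% lower. Log2 fold changes lay above 0 in 5 enteroendocrine, 1 Paneth and 1 tuft cell marker, and 51.4% of all tested genes lay below 0. At an unadjusted p under 0.05 were 2 enterocyte, 2 stem cell, 3 goblet cell, 4 enteroendocrine, 2 Paneth and 0 tuft cell markers, beside 24.8% of all tested genes. Without mimic replicate 3, Spink4 had an adjusted p of 0.168. Mesenchymal markers summed to 0.50 to 0.72 TPM, with 4 of 8 at 0 counts and Pdgfrb the most abundant by its mean. The leukocyte list was led by Cd68 at 1.70 to 2.04 TPM, which many cell types express at low levels. The hepatocyte list, at 414 to 494 TPM, was carried by Cps1 and Ttr, which gut epithelium also expresses, while Alb lay at 0.10 to 0.26 TPM. The part of these differences in the values of the ileal bile acid genes was not tested.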

How the data were processed

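Reads were single and 100 cycles long. The authors used Trimmomatic for trimming and RSEM with GRCm38 transcripts. The values the authors deposited are estimated counts (RSEM expected counts), which are not normalized, and TPM. The labels name poly(A) enrichment, whereas the supplemental methods describe depletion of ribosomal RNA. Whether counting used strand is not given in the sources used here. Both tables also hold 3 further control and mimic columns that match no sample given here, and these were left out.

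After rounding, the expected counts were filtered with filterByExpr, scaled by TMM and fitted in edgeR 4.0.16 under R 4.3.3 by its quasi-likelihood method, in the newer form of glmQLFit. P-values were adjusted by Benjamini and Hochberg's method over 17155 genes. SE values are |log2 fold change| over the root of the F statistic. Normalized CPM use library sizes corrected by TMM. The procedure was tested on simulated counts with known changes, with the same dispersion for every gene, so genes of wider spread were not covered. Symbols were matched for 55141 of 55487 identifiers, and coordinates and 3' UTRs came from GENCODE mouse release M21. The common biological coefficient of variation was 0.13, and replicates differed beyond sampling noise (chi-square per degree of freedom 30.4 in the controls and 16.5 in the mimic libraries). With 2 libraries a group, precision is set by replicate spread, and the limit of 3 counts covers counting error only.

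The 8 genes and all lists were chosen with earlier results of these data known. From 2 of the lists 1 gene each is not reported here and was left out of the list's counts. From each other list the called genes (up to 6, by size) and the most abundant gene by mean TPM are named, and for each tested member the 3 nearest profiles. Other named genes (Slc10a1, Rxra, Fgfr4, Klb, Nos2, Car12, Gata4, Fabp2, Ptprc, Alb, Ttr, Cyp7a1, Cyp8b1, Cyp7b1, Gsta1, Hsd17b4, Cyp3a11) were chosen after their values were seen. Alternatives were the edgeR exact, likelihood-ratio and robust tests, DESeq2 1.42.0, other scalings and filters, limma 3.58.1 on log2(TPM + 1) and log2(TPM + 0.1), and each library left out. The classic form of the quasi-likelihood fit and the sum of Fgf15 with Gm26793 were added after the data were seen.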

Additional observations from a re-analysis of the deposited data

How the results depend on the processing

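No paired analysis was possible because the groups share no replicate number. Of the ileal bile acid genes, 0 were called higher and 0 lower, and 0 with a 2-fold difference. The number called higher became 1 with the edgeR exact test (Fgf15, log2 fold change 1.61, adjusted p = 0.0156), 2 with the likelihood-ratio test (Fgf15 at 1.61, adjusted p = 0.0116, and Slc10a2 at 1.18, adjusted p = 0.049) and, with a library left out, 0 to 1 (Slc10a2 without mimic replicate 3). The same numbers held with the 2-fold rule. None was called lower under any alternative run. Over all genes, calls higher and lower went from 220 and 392 to 761 and 1027 with the exact test, 792 and 1072 with the likelihood-ratio test, 613 and 709 with DESeq2, and 67 and 125 with no filter. They were 32 and 43 with limma on log2(TPM + 1), 11 and 16 on log2(TPM + 0.1), and 2 and 0 on log2(TPM + 1) with no filter. With a library left out they ran from 132 to 1141 and from 191 to 1185, the highest without control replicate 2 and the lowest without mimic replicate 3. The cause was not tested. The sign of Slc51b changed to -0.01 in the exact, likelihood-ratio, classic quasi-likelihood, DESeq2 and 10-count fits (-0.0112, -0.0112, -0.0097, -0.0077 and -0.0118) and to -0.048 with upper-quartile factors, which moved the median of all genes to -0.06. With a library left out Slc51b ran from -0.39 to 0.48 (-0.39 without control replicate 1 and -0.05 without mimic replicate 4) and Nr0b2 from -1.07 to 0.11. Slc10a2 and Slc51a stayed above 0 and Nr1h4 below 0 under all 18 alternatives, and Fgf15 above 0 under the 15 in which it was fitted. Depth limits Fabp6 and Gpbar1, at up to 7 counts, and Fgf15 and Nr0b2, at 6 to 35.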
